A study of Mus musculus with 12 samples.

Results

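The genes described here encode the enzymes of glycolysis, of glycogen storage and breakdown, and the glucose transporters that feed both routes. With earlier results of these data known, they were taken by name from a list of 37 mouse genes. Of these, 33 had a probe set annotated to that gene alone, and where a gene had several, the 1 brightest on average across all 12 arrays stood for it. The glycogenin gene Gyg1 is listed as Gyg in the array annotation. In all, 32 of the 33 lay in the upper 60% of genes by mean and were tested, among 10916 tested genes of 18193 on the array. Aldoc, an aldolase gene, had a mean intensity of 25.5 and was not tested. Gapdh was measured by control probe sets alone, and Gpi1, Pfkfb1 and Eno1 have no single-gene probe set in the annotation used and were not analysed here.

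Heart muscle takes up glucose through the transporters GLUT1 (Slc2a1) and GLUT4 (Slc2a4), of which GLUT4 moves to the cell surface in response to insulin and contraction. Hexokinase traps the sugar, phosphofructokinase sets the pace of glycolysis, and pyruvate is either oxidised in mitochondria or reduced to lactate. Glycogen is built on the primer protein glycogenin and is broken down by glycogen phosphorylase, which phosphorylase kinase switches on. The adult heart burns mainly fatty acids, and a loaded heart is known to lean more on glucose. Several steps have a muscle form and a form used by many other tissues, encoded by separate genes.

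Total RNA from mouse hearts was hybridised to 12 Affymetrix arrays, in 4 groups of 3 that the labels call biological replicates. The groups were apelin-knockout (KO) mice with aortic banding, KO mice with a sham operation, wild-type (WT) mice with aortic banding and WT mice with a sham operation. Apelin is a peptide hormone of the cardiovascular system, and banding narrows the aorta so that the heart pumps against a raised pressure. The labels give no strain, age, sex or time after surgery, and no detail of how the gene was inactivated. The labels name the tissue as heart, which holds many cell types, so fewer cells of a type and less RNA per cell cannot be told apart.

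Some arrays stood apart. The knocked-out gene, Apln, had intensities of 270.7, 123 and 160.1 in KO banded, 63.7, 111 and 85.4 in KO sham, 205, 223 and 255 in WT banded and 333, 324 and 212 in WT sham arrays. The array labelled KO banded 1 thus lay within the WT range, while the other 5 KO arrays lay below it. It also read high for Scgb1a1 (1094), an airway gene, and for the fat gene Adipoq (392), which was also high in WT banded 1 (327). The 4 fat markers summed to 1368 and 1306 in these arrays and to at most 412 in the other 10. Xist read 1255 in the array labelled WT banded 3 against at most 89.2 elsewhere. Atrial tissue differed widely between arrays of a group: the 8 atrial markers summed to 17240, 12890 and 13590 in KO banded, 6456, 19430 and 28450 in KO sham, 37300, 30730 and 6642 in WT banded and 10260, 4671 and 31550 in WT sham arrays. Myl7, the atrial myosin light chain, read 3.44 in KO sham 1 and 19.6 in WT banded 3, and 444 to 7621 in the other 10 arrays. The part of atrial tissue in the results was not tested. Counts of genes that pass in KO banded hearts are therefore given with and without the array labelled KO banded 1, and so is each gene whose call it changes. Values were compared as log2(intensity + 16) in limma, an adjusted p is Benjamini-Hochberg adjusted over all tested genes of a comparison, and a gene passed when it was under 0.05.

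Banding in KO hearts lowered Slc2a4, the insulin-responsive glucose transporter, and Phkg1, the muscle catalytic subunit of phosphorylase kinase, and no other gene of the list passed. That was 2 of 32 genes, both lower, against 3.77% of all tested genes called in either direction and 1.73% called lower. At an unadjusted p under 0.05 there were 12 of the 32, 3 higher and 9 lower, against 21.2% of all tested genes. The list's median log2 change was -0.14 and that of all tested genes -0.02, and 23 of the 32 genes lay below 0 against 53.1% of all tested genes. In 12 genes every KO banded array was lower than every KO sham array, against 14.4% of all tested genes, and in 1 gene, Gyg, every array was higher, against 12.2%. The count was 9 of 32 without the array labelled KO banded 1, with 4 higher and 5 lower, where 13.1% of all tested genes were called and 2 KO banded arrays remained. The other 23 genes did not pass without the array labelled KO banded 1, the smallest p among them being that of Ldhb (-0.52, adjusted p = 0.0570). Of the 32 genes 0 passed when KO banded 2, KO banded 3 or any KO sham array was left out, or when a gene's probe sets were averaged.

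**Figure D1:**
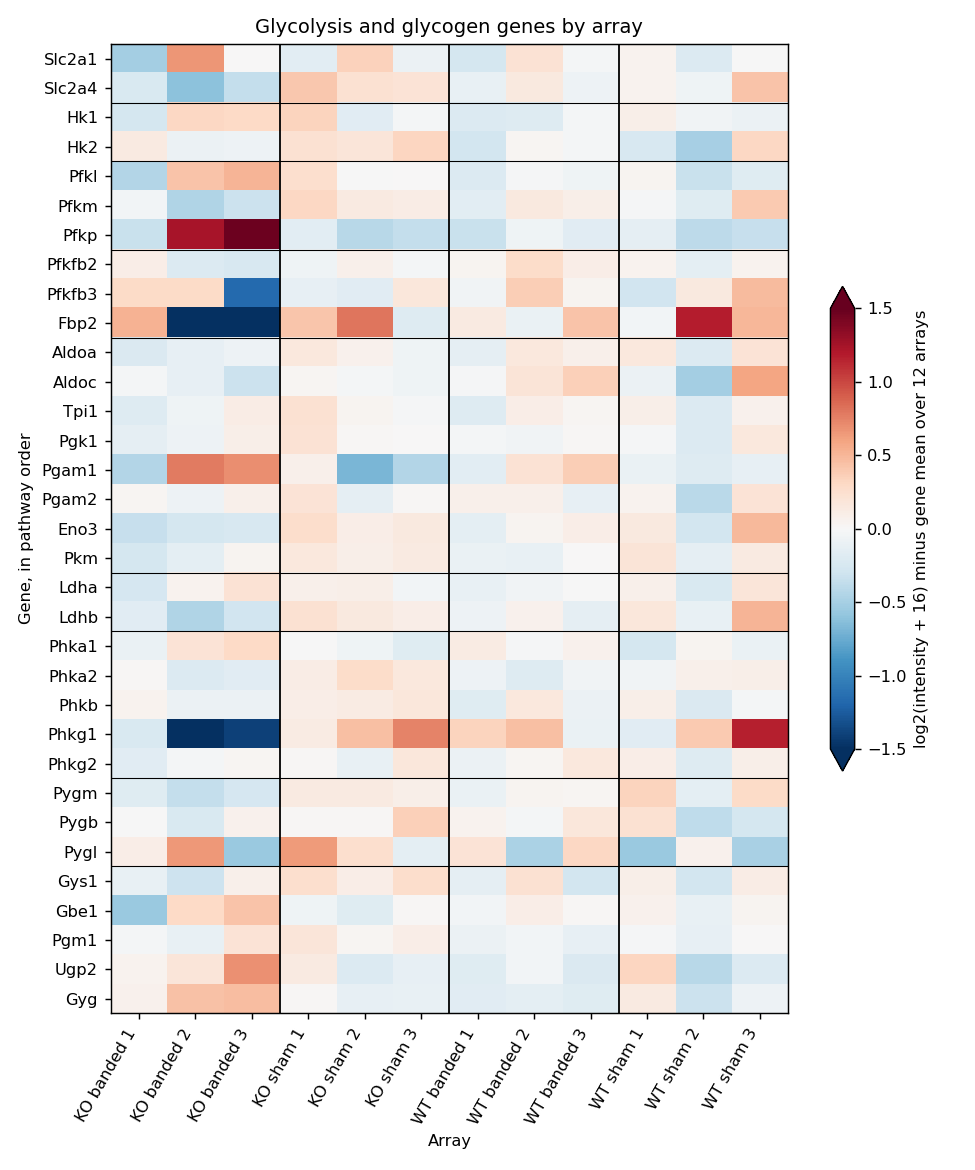
Each row is 1 of the 33 measured genes in pathway order and each column 1 array; the colour is log2(intensity + 16) minus the gene's mean over the 12 arrays, and colours stop at 1.5 above and below that mean. The strongest colours are Pfkp, Fbp2 and Phkg1 in KO banded 2 and 3, while the array labelled KO banded 1 is pale in these rows.

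Among the genes that stood farthest from sham hearts in KO banded 2 and 3 were Phkg1, Pfkp, Fbp2 and Pgam1. Their promoter windows, from 250 bases before to 50 bases after the annotated start, are shown because these genes stood apart in the same arrays. The windows are from RefSeq on build GRCm38.p6, written 5′ to 3′ on the gene's strand. Capitals mark the letters ACGTG, which is the core of the hypoxia response element, and CANNTG, the E-box bound by many transcription factors, on either strand. The Phkg1 window is chr5:129879039-129879338 on the minus strand, that of Pfkp chr13:6648722-6649021 on the minus strand, that of Fbp2 chr13:62858351-62858650 on the minus strand and that of Pgam1 chr19:41911621-41911920 on the plus strand.
Phkg1: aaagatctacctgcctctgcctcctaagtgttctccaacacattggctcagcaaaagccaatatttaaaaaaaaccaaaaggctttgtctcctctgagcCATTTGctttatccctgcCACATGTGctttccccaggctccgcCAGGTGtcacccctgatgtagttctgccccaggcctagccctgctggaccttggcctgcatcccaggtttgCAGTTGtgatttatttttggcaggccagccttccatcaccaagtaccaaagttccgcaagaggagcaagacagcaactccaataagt
Pfkp: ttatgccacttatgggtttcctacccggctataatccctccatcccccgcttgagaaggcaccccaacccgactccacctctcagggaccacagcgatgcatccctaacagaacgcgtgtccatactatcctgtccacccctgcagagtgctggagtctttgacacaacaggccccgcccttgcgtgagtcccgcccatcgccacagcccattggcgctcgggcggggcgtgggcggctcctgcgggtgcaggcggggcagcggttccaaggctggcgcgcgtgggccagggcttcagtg
Fbp2: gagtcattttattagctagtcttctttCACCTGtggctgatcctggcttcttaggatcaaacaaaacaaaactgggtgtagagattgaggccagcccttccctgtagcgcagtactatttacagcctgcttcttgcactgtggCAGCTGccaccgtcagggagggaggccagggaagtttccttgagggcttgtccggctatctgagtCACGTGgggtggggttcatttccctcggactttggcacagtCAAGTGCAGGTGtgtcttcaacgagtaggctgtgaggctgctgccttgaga
Pgam1: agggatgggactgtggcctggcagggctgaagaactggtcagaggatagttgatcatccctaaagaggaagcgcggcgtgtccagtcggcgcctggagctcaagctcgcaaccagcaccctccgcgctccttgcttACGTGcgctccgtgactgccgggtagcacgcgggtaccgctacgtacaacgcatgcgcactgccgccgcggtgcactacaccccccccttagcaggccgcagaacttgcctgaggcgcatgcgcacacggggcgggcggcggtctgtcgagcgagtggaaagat

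Phkg1 had 5 CANNTG matches and no ACGTG. Pfkp had neither, and held 4 matches to GGGCGG, the GC box. Fbp2 had 5 CANNTG matches, 1 of them the palindrome CACGTG, which reads as ACGTG on both strands. Pgam1 had 1 ACGTG and 2 GGGCGG matches. Of the 33 measured genes 32 had a promoter window, the exception being Slc2a4. ACGTG lay in 16 of the 32, or 50.0%, against 26.24% of the windows of tested genes and 19.67% of all windows in the table. CANNTG lay in 71.88% of the 32 windows and in 62.83% of those of tested genes, GGGCGG in 68.75% and 64.8%, and TATAAA in 6.25% and 7.49%. The consensus of the muscle factor MEF2 lay in 1 window, that of Pgam2 (3.12%), against 1.38% for tested genes. All motifs were searched on both strands, and CANNTG and ACGTG can overlap. These matches describe letters and show no binding.

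Of the glucose transporter genes, Slc2a4 fell with banding in KO hearts. Its intensities were 2549, 1934 and 2317 in KO banded and 3940, 3495 and 3443 in KO sham hearts, and 2750, 3311 and 2828 in WT banded and 3104, 2840 and 4019 in WT sham hearts. All 3 KO banded arrays were lower than each of the other 9. The log2 change with banding in KO hearts was -0.68 (SE 0.14, adjusted p = 0.0273, limma), with means of 2267 ± 310.2 and 3626 ± 273 (SD, n = 3 each), and -0.77 without the array labelled KO banded 1 (adjusted p = 0.00723). The second Slc2a4 probe set was at -0.45 in KO and -0.14 in WT hearts. Slc2a1, the transporter found in most cell types, was 210 ± 91.6 in KO banded and 197 ± 42.6 in KO sham hearts, at 0.02 (95% interval -0.51 to 0.55). Its 3 KO banded arrays read 129, 309 and 190.1, so they spread more widely than the sham arrays.

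Neither hexokinase gene passed. Hk2, the hexokinase of insulin-responsive muscle, read 2078, 1776 and 1800 in KO banded and 2219, 2155 and 2361 in KO sham hearts. The groups did not overlap, but the change of -0.25 had an adjusted p of 0.417. Hk1, the form expressed in most tissues, read 1782, 2654 and 2633 in KO banded hearts and 1891 to 2692 in KO sham hearts, at 0.07 (adjusted p = 0.839).

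The 3 phosphofructokinase genes had log2 changes of both signs in KO hearts, and 0 passed with all arrays. Pfkp, the platelet form, read 343, 1054 and 1242 in KO banded hearts, 390.4, 324 and 337 in KO sham, 345, 417 and 386 in WT banded and 398, 329 and 341 in WT sham hearts. KO banded 2 and 3 were above all other arrays and the array labelled KO banded 1 lay among the shams, so the groups overlapped. The change was 1.10 (SE 0.34, adjusted p = 0.0871), and without the array labelled KO banded 1 it was 1.67 (SE 0.13, adjusted p = 5.57e-05), where Pfkp rose. The other Pfkp probe sets were at 1.50 and 0.34.

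Pfkm, the muscle form, read 4375, 3284 and 3600 in KO banded and 5598, 4968 and 4862 in KO sham hearts. The groups did not overlap, and the change was -0.46 (SE 0.16, adjusted p = 0.115). Pfkm fell by 0.58 on the log2 scale without the array labelled KO banded 1 (adjusted p = 0.0401). Pfkl, the liver form, read 1175, 2162 and 2296 in KO banded and 1915, 1602 and 1608 in KO sham hearts, with a change of 0.08 (adjusted p = 0.864), or 0.39 without that array (adjusted p = 0.0694). The array labelled KO banded 1 was the lowest of all 12 for Pfkl and KO banded 2 and 3 were the highest.

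Fructose bisphosphate, the product of phosphofructokinase, is turned back by the muscle bisphosphatase Fbp2. Fbp2 read 332, 41.2 and 66.2 in KO banded hearts, 306, 407 and 195 in KO sham, 249.9, 209.7 and 309 in WT banded and 220.1, 530.2 and 327 in WT sham hearts. KO banded 2 and 3 were the lowest of all arrays, and the array labelled KO banded 1 lay within the sham range. The change was -1.38 (SE 0.53, adjusted p = 0.159), and -2.16 (SE 0.34, adjusted p = 0.00187) without the array labelled KO banded 1, where Fbp2 fell. Pfkfb2 and Pfkfb3 encode the enzymes that make and remove the sugar phosphate activating phosphofructokinase. Pfkfb2, the heart form, was at -0.11 (adjusted p = 0.624) and Pfkfb3 at -0.15 (adjusted p = 0.839), with KO banded arrays at 81.8, 82.0 and 19.7 for Pfkfb3.

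**Figure D2:**
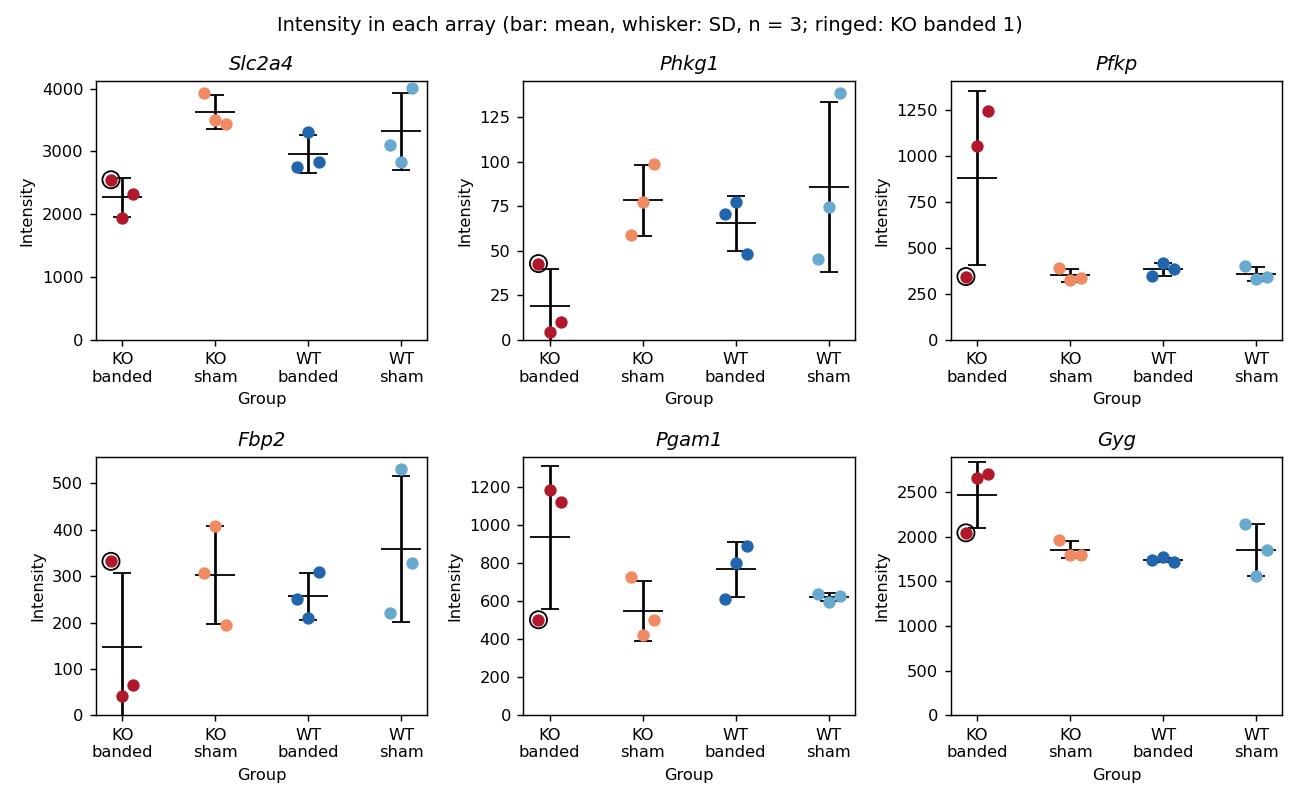
Intensity of 6 genes in each array (points), by group, with the group mean (bar) and SD (whisker, not drawn below 0) over 3 arrays; the array labelled KO banded 1 is ringed. Slc2a4 is lower in all 3 KO banded arrays, while Pfkp, Fbp2 and Pgam1 depart from sham in KO banded 2 and 3 and not in the ringed array.

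In lower glycolysis 6 of 7 tested genes had a log2 change below 0 in KO banded hearts, from -0.45 to -0.02, and none passed. After quantile normalization 3 of the 7 were below 0, Eno3, Pkm and Tpi1, and Aldoa, Pgk1 and Pgam2 turned above 0. Eno3, muscle enolase, read 4722, 5000 and 5114 in KO banded and 7246, 6444 and 6646 in KO sham hearts. The groups did not overlap and the change was -0.45 (SE 0.16, adjusted p = 0.125). Pkm, pyruvate kinase, was 3909 ± 427 in KO banded and 4621 ± 126 in KO sham hearts, at -0.25 (adjusted p = 0.233), and Aldoa, the main muscle aldolase, 6242 ± 308 and 7164 ± 557, at -0.20 (adjusted p = 0.408), also without overlap. The 5 Aldoa probe sets lay at -0.31 to -0.19. Tpi1, triosephosphate isomerase (-0.14), Pgk1, phosphoglycerate kinase (-0.12), and Pgam2, the muscle phosphoglycerate mutase (-0.02), had overlapping arrays and intervals within 0.41 of 0. Gapdh, read from its control probe sets, was at -0.24 (SE 0.19, adjusted p = 0.498) in KO and -0.10 in WT hearts.

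Pgam1, the mutase form of brain and most other tissues, stood on the opposite side. It read 502, 1184 and 1119 in KO banded hearts, 724, 419.9 and 499.7 in KO sham, 610.0, 799 and 890.0 in WT banded and 637, 596 and 628 in WT sham hearts. KO banded 2 and 3 were the highest of all arrays, and the array labelled KO banded 1 lay among the shams. The change was 0.69 (SE 0.28, adjusted p = 0.179), and without the array labelled KO banded 1 Pgam1 rose by 1.09 (SE 0.20, adjusted p = 0.00418).

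Lactate dehydrogenase is built from a muscle subunit, Ldha, and a heart subunit, Ldhb. Ldhb read 6413, 5279 and 5934 in KO banded hearts, 8461, 7964 and 7729 in KO sham, 6841, 7558 and 6597 in WT banded and 8136, 6671 and 10310 in WT sham hearts. Each KO banded array was lower than each array of the other 3 groups, and the change with banding was -0.46 in KO hearts (SE 0.14, adjusted p = 0.0944) and -0.24 in WT hearts (SE 0.14, adjusted p = 0.921). Its 4 probe sets lay at -0.50 to -0.38 in KO hearts. Ldha was 5875 ± 968 in KO banded and 5955 ± 278 in KO sham hearts, at -0.03 (95% interval -0.33 to 0.27).

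For some steps with several forms, the log2 ratio of a chosen pair was taken within each array. It was set relative to the WT sham mean, as a description with no test. The muscle form is named last, except in Ldha over Ldhb, where the muscle subunit is set over the heart subunit. Among pairs not taken, the muscle form Phka1 was at 0.22 and Phka2 at -0.30 in KO hearts. Pfkl was at 0.08 and Pfkm at -0.46, and Phkg2 was at -0.085 and Phkg1 at -1.56. Pfkp over Pfkm was 0.06, 2.05 and 2.15 in KO banded, -0.12, -0.20 and -0.12 in KO sham, 0.18, 0.14 and 0.09 in WT banded and 0.24, 0.14 and -0.39 in WT sham hearts. All 3 KO banded arrays were above KO sham, although the array labelled KO banded 1 was within the WT range. Pgam1 over Pgam2 was -0.37, 0.95 and 0.71 in KO banded hearts and -0.46 to -0.04 in KO sham hearts. Ldha over Ldhb was 0.09, 0.69 and 0.69 in KO banded hearts and 0.03 to 0.12 in KO sham hearts, and Slc2a1 over Slc2a4 was -0.08, 1.47 and 0.56 against -0.37 to 0.31. In these 4 pairs, and in Hk1 over Hk2, KO banded 2 and 3 were above every KO sham array. Slc2a4, Pfkm, Pgam2 and Ldhb, and also Ldha, had mean intensities above 3000. All tested genes above 3000 had a median change of -0.23 in KO hearts, and dimmer ones -0.01. Slc2a1, Pfkp, Pgam1, Hk1 and Hk2 were among the dimmer genes. The part of brightness in these ratios was not tested. Pygb over Pygm was 0.43 to 0.61 in KO banded and 0.17 to 0.56 in KO sham hearts, and 0.22 to 0.45 in WT banded against -0.26 to 0.20 in WT sham hearts. Hk1 over Hk2 was -0.52, 0.28 and 0.25 in KO banded and -0.48 to -0.02 in KO sham hearts.

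**Figure D3:**
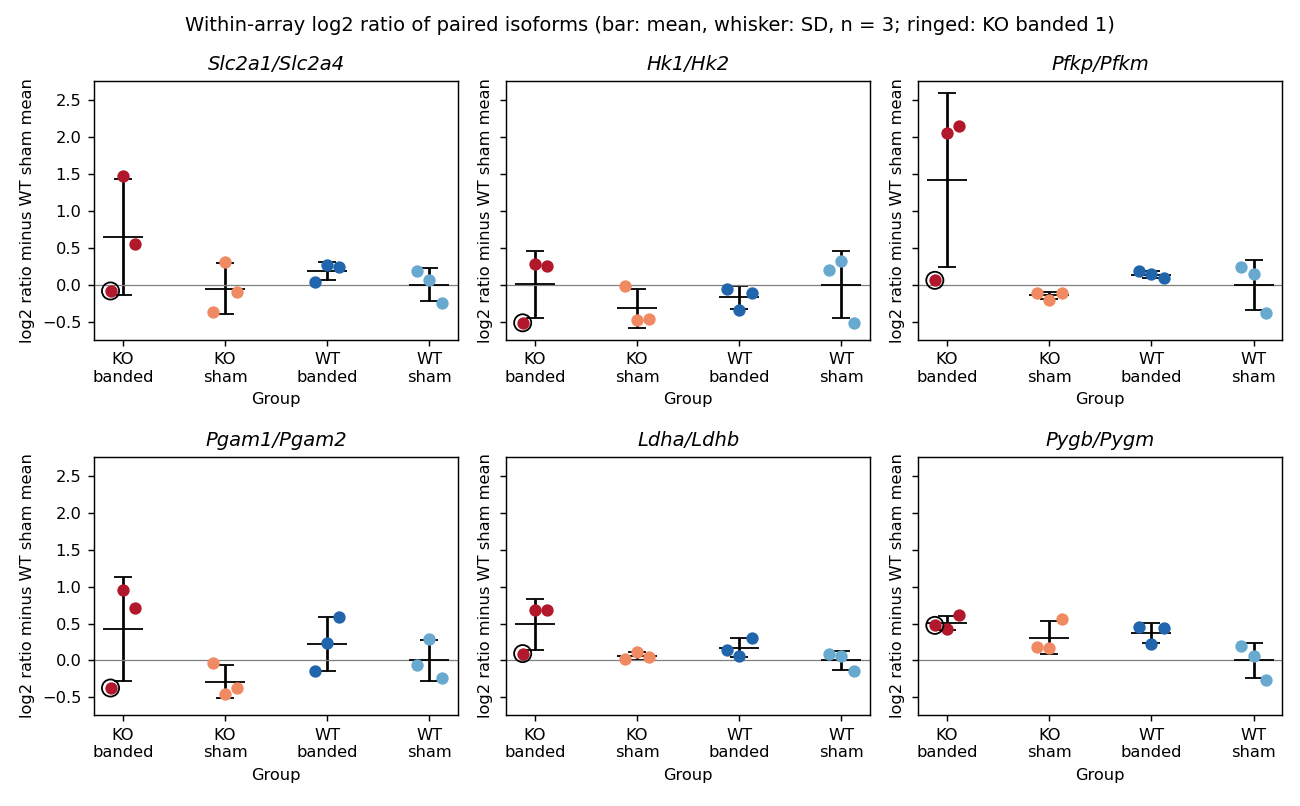
Within-array log2 ratio of the gene named first over the gene named last, minus the WT sham mean, in each array (points), with the group mean (bar) and SD (whisker) over 3 arrays; the array labelled KO banded 1 is ringed. Pfkp over Pfkm stands near 2 in KO banded 2 and 3 and between -0.39 and 0.24 in the other 10 arrays.

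Phosphorylase kinase, which relays calcium and adrenaline signals to glycogen breakdown, has a catalytic, a calcium-binding and 2 regulatory kinds of subunit. The muscle catalytic subunit Phkg1 read 42.8, 4.38 and 9.96 in KO banded hearts, 58.6, 77.7 and 98.7 in KO sham, 70.4, 77.6 and 48.1 in WT banded and 45.2, 74.4 and 138 in WT sham hearts. All 3 KO banded arrays were lower than each of the other 9. The change in KO hearts was -1.56 (SE 0.39, adjusted p = 0.0459), and -2.01 without the array labelled KO banded 1 (adjusted p = 0.00267). The gene is dim, with a mean of 62.2 where the lowest mean tested was 48.5, so its fold depends on the added 16 and is understated on this scale. Its second probe set was at -1.0 in KO and -0.57 in WT hearts. There the KO groups overlapped, with 41.25 in the array labelled KO banded 1 and 36.67 in KO sham 1. The other catalytic subunit, Phkg2, was 111 ± 9.07 in KO banded and 119 ± 13.7 in KO sham hearts, at -0.09 (95% interval -0.37 to 0.20).

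The regulatory subunits had log2 changes closer to 0. Phka2 read 296, 253 and 260.5 in KO banded, 319.9, 359 and 329 in KO sham, 278, 256 and 283 in WT banded and 283, 312 and 314 in WT sham hearts. Its KO groups did not overlap, at -0.30 (SE 0.10, adjusted p = 0.0984), and without the array labelled KO banded 1 it fell by 0.37 on the log2 scale (adjusted p = 0.0351). Phkb was 256 ± 15.4 in KO banded and 290.5 ± 7.71 in KO sham hearts (-0.17, adjusted p = 0.405), and the muscle form Phka1 518 ± 75.2 and 439 ± 27.8 (0.22, adjusted p = 0.301).

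Of the glycogen phosphorylases, Pygm, the muscle form, read 3448, 3038 and 3285 in KO banded and 4291, 4297 and 4151 in KO sham hearts. The groups did not overlap and the change was -0.38 (SE 0.12, adjusted p = 0.0974). Pygb, the brain form that heart also expresses, was at -0.18 (adjusted p = 0.553), and Pygl, the liver form, at -0.18 (adjusted p = 0.781), both with overlapping arrays.

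On the side of glycogen synthesis Gyg, the glycogenin primer, read 2044, 2655 and 2700.0 in KO banded hearts, 1967, 1797 and 1799 in KO sham, 1739, 1768 and 1716 in WT banded and 2139, 1558 and 1852 in WT sham hearts. KO banded arrays were above both KO sham and WT banded arrays, and the change with banding was 0.40 (SE 0.13, adjusted p = 0.102). Gyg rose by 0.53 without the array labelled KO banded 1 (adjusted p = 0.0152), and the second Gyg probe set was at 0.43 over all arrays. Gbe1, the branching enzyme, read 171, 322 and 354 in KO banded and 248, 226 and 261 in KO sham hearts, at 0.14 (adjusted p = 0.749). It rose by 0.44 without that array (adjusted p = 0.0209). Ugp2, which makes UDP-glucose, read 3632, 3981 and 5653 against 3832, 3037 and 3208, at 0.38 (adjusted p = 0.283), and its 5 probe sets lay at 0.38 to 0.90. Gys1, the muscle glycogen synthase, was 539.6 ± 73.6 in KO banded and 675 ± 41.5 in KO sham hearts, without overlap, at -0.32 (adjusted p = 0.236). Pgm1, which joins glycogen to glycolysis, was at -0.08 (adjusted p = 0.680).

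The arrays of KO banded hearts also differed in their brightest signals. The intensity below which 99.9% of the probe sets of an array fall was 7857 to 8166 in KO banded, 9293 to 10350 in KO sham, 8870 to 10830 in WT banded and 7692 to 14020 in WT sham arrays. Of the 32 genes, 13 had a mean intensity above 3000, among them Ldhb, Aldoa, Eno3, Pfkm, Pkm, Pygm and Slc2a4. Their median change in KO hearts was -0.20 with 12 of 13 below 0, against -0.23 with 290 of 346 below 0 for all tested genes above that intensity. The other 19 had a median of -0.09, against -0.01 for the 10570 dimmer genes. All 8 cardiomyocyte markers were below 0 with a median of -0.31 and 1 passing, and their summed intensity was 63440 to 65230 in KO banded, 76780 to 84520 in KO sham, 72610 to 89800 in WT banded and 64170 to 118500 in WT sham arrays. After quantile normalization 5 of the 32 genes passed, Slc2a4 (-0.65), Phkg1 (-1.55), Eno3 (-0.29), Pygm (-0.31) and, upward, Gyg (0.45), and Aldoa (0.04), Pgk1 (0.13) and Pgam2 (0.10) then lay above 0. The part of these measures in the changes was not tested.

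Markers of other cell types are given beside Pfkp and Pgam1, the forms found outside muscle, for KO hearts. The 8 macrophage markers summed to 2716, 4046 and 4167 in KO banded and 2801 to 3273 in KO sham arrays, with 6 of 8 above 0 and 0 passing. The fibroblast markers summed to 12840, 15390 and 14410 in KO banded and 13150 to 15430 in KO sham arrays, with 5 of 7 tested above 0 and 1 passing upward, and the 9 endothelial markers to 9963 to 10620 and 9672 to 11470. The 9 skeletal muscle markers summed to 126 to 170 in KO banded and 115 to 185 in KO sham arrays. The Actb 3' over 5' log2 ratio, a measure of RNA quality, was -0.22 to -0.17 in KO banded and -0.01 to 0.30 in KO sham arrays. It was 0.08 to 0.28 in WT banded and -0.09 to 0.18 in WT sham arrays. Each KO banded array was thus below every array of the other groups. The Gapdh 3' over 5' log2 ratio was -0.34 to -0.32 in KO banded and -0.37 to -0.33 in KO sham arrays, which overlap. The 3 erythroid markers summed to 645, 1446 and 1507 in KO banded and 539 to 1252 in KO sham arrays. Pfkp, the macrophage sum and the erythroid sum were each lower in the array labelled KO banded 1 than in KO banded 2 and 3. In WT banded 2 and WT sham 1 the macrophage sums were 4305 and 4110, and Pfkp read 417 and 398 there. The erythroid sums were 1385 in WT banded 1 and 1560 in WT banded 2, where Pfkp read 345 and 417. The part of all these cell types, macrophages and erythroid cells included, in the changes of Pfkp and Pgam1 was not tested. The part of RNA quality in any change in KO banded hearts, those of Slc2a4 and Phkg1 included, was not tested either.

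In WT hearts no gene of the list passed for banding. Limma called 0 of 32, where 0.0% of all tested genes were called, and 0 of 32 had an unadjusted p under 0.05 where 4.92% of all tested genes did. The median was -0.01, against -0.02 for all tested genes. The smallest p-values were those of Ldhb (-0.24), Phka2 (-0.15, SE 0.10, adjusted p = 0.945) and Pfkfb2 (0.16, SE 0.11, adjusted p = 0.959), and Phka2 alone had no overlap between WT banded and WT sham, against 6.15% of all tested genes lower without overlap. Pfkfb2 read 536, 634 and 559 in WT banded and 538, 467 and 539.6 in WT sham hearts. Slc2a4 was at -0.15 in WT hearts (95% interval -0.46 to 0.16) and Phkg1 at -0.24 (-1.08 to 0.60).

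**Figure D4:**
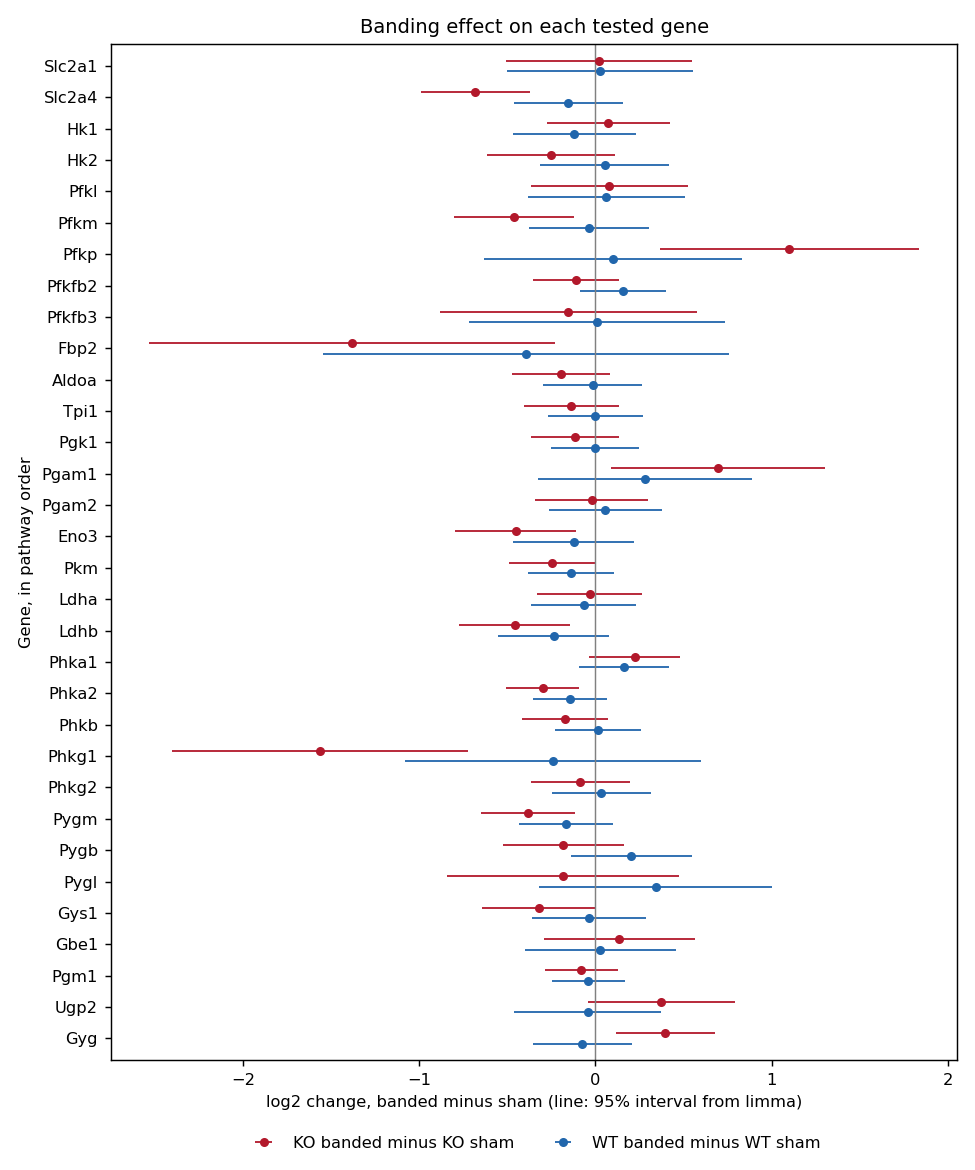
Log2 change with banding (point) and its 95% interval from limma (line) for each of the 32 tested genes in pathway order, KO banded minus KO sham in red and WT banded minus WT sham in blue. The interval excludes 0 for 12 genes in KO hearts and for none in WT hearts.

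The test of the difference between the genotypes' banding effects called 0 of 32 genes in limma, where 0.0% of all tested genes were called, and 3 of 32 had an unadjusted p under 0.05 where 9.08% of all tested genes did. These were Slc2a4 (-0.53, SE 0.20, adjusted p = 0.500), Gyg (0.47, SE 0.18, adjusted p = 0.500) and Phkg1 (-1.32, SE 0.55, adjusted p = 0.525). Without the array labelled KO banded 1 Pfkp passed, at 1.57 (adjusted p = 0.00292), where 1.9% of all tested genes did. The effects of banding in KO and WT hearts were thus not shown to differ for Slc2a4 or Phkg1. Averaged over the genotypes 0 of 32 passed for banding, where 1.58% of all tested genes did, and 12 had an unadjusted p under 0.05 where 18.2% of all tested genes did. Slc2a4 was at -0.42 (SE 0.10, adjusted p = 0.0613), Ldhb at -0.35 (SE 0.10, adjusted p = 0.110) and Phkg1 at -0.90 (SE 0.27, adjusted p = 0.118). Leaving out the array labelled KO banded 1, these averaged tests called 6, Slc2a4, Phkg1, Fbp2, Pfkp, Pgam1 and Phka2, where 9.08% of all tested genes were called.

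Between the genotypes in sham hearts 0 of 32 genes passed in limma, where 0.0% of all tested genes did, and 1 had an unadjusted p under 0.05 where 5.17% did. That gene was Hk2, at 2219, 2155 and 2361 in KO sham and 1596, 1339 and 2350 in WT sham hearts, a difference of 0.39 (SE 0.17, adjusted p = 0.931) with overlapping arrays. Pygl read 425, 322 and 239.9 in KO sham and 177, 279.6 and 186 in WT sham hearts (0.58, SE 0.30, adjusted p = 0.931). Pygb read 3751, 3743 and 4746 in KO sham and 4354, 2837 and 3076 in WT sham hearts (0.27, SE 0.16, adjusted p = 0.931). Phka2, Phkb and Pgm1 were higher in all KO sham than in all WT sham arrays, at 0.14, 0.18 and 0.15, against 5.51% of all tested genes higher without overlap. Leaving out the array labelled KO banded 1, which enters here only through the shared spread, 0 of 32 passed, where 0.00916% of all tested genes did. The knocked-out gene Apln did not pass with all arrays (-1.57, SE 0.25, adjusted p = 0.416, limma). Without the array labelled KO banded 1 it passed (adjusted p = 0.0496).

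In banded hearts 0 of 32 genes passed between KO and WT in limma, where 0.0% of all tested genes did, and 7 had an unadjusted p under 0.05 where 14.7% did. The smallest p-values were those of Gyg (0.49, SE 0.13, adjusted p = 0.157), Phkg1 (-1.35, SE 0.39, adjusted p = 0.170) and Pfkp (0.98, SE 0.34, adjusted p = 0.224). Slc2a4, Eno3, Ldhb, Phkg1 and Pygm were lower in all KO banded than in all WT banded arrays, against 8.94% of all tested genes, and Ugp2 and Gyg higher, against 10.2%. Without the array labelled KO banded 1, 5 passed, where 6.17% of all tested genes did: Pfkp (1.54, adjusted p = 0.000191), Pfkl (0.56, adjusted p = 0.0241), Gyg (0.62, adjusted p = 0.0137), Fbp2 (-1.97, adjusted p = 0.00701) and Phkg1 (-1.80, adjusted p = 0.0103). Averaged over surgery 0 of 32 genes passed for genotype, where 0.0% of all tested genes did, and 2 had an unadjusted p under 0.05 where 10.6% did. Gyg was at 0.25 (SE 0.09, adjusted p = 0.412), Phkg1 at -0.69 (SE 0.27, adjusted p = 0.430) and Pfkp at 0.48 (SE 0.24, adjusted p = 0.504). With the array labelled KO banded 1 left out, 3 passed, where 1.32% of all tested genes did, namely Pfkp (0.76, adjusted p = 0.00593), Pfkl (0.40, adjusted p = 0.0457) and Fbp2 (-1.09, adjusted p = 0.0443). Apln itself did not pass in banded hearts (-0.34, adjusted p = 0.562) or averaged over surgery (-0.96, adjusted p = 0.246). Without the array labelled KO banded 1 it was at -0.63 (adjusted p = 0.121) and -1.10 (adjusted p = 0.0103). With all arrays these tests did not call the knocked-out gene. A gene that did not pass is therefore not shown to be unchanged.

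**Figure D5:**
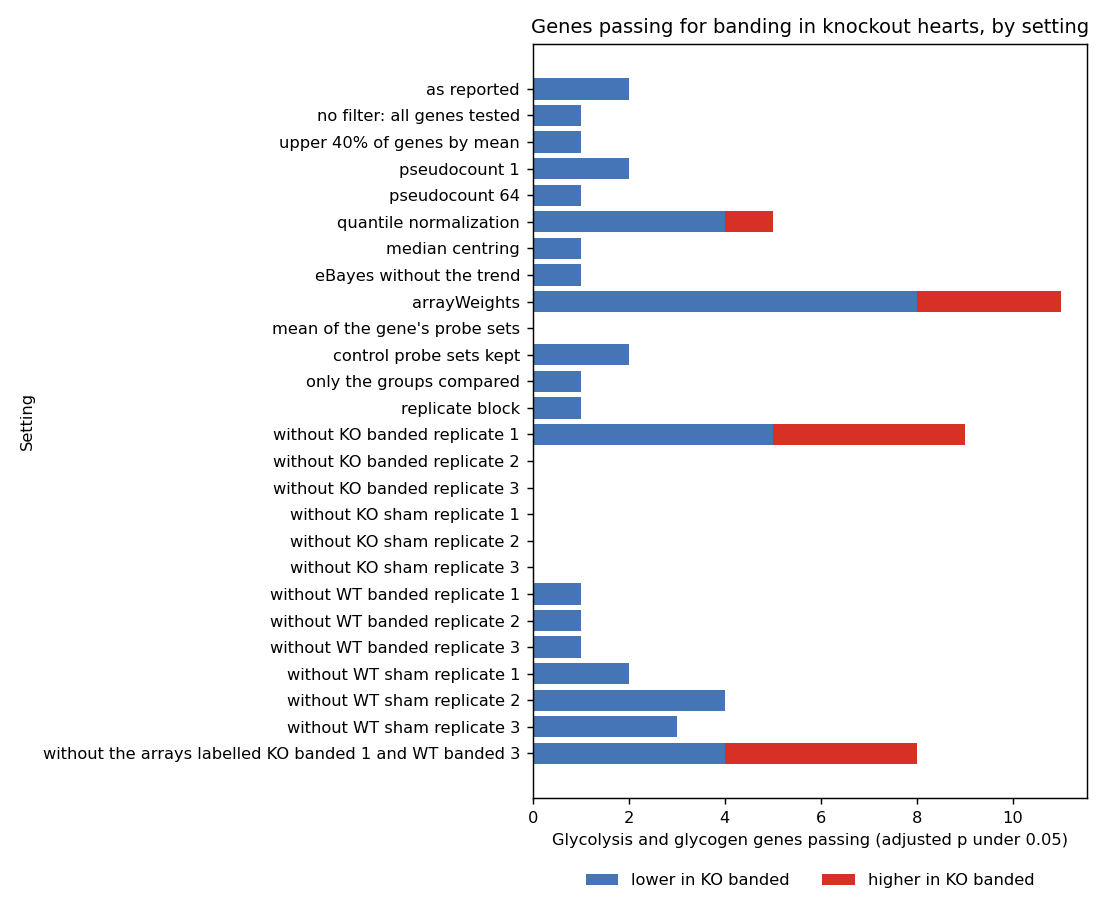
Number of the tested glycolysis and glycogen genes passing for banding in KO hearts, lower (blue) and higher (red) in KO banded, under the reported setting and 25 others, 1 per row. The bars run to 11 with array weights and 9 without the array labelled KO banded 1, and are absent with probe sets averaged and without KO banded 2, KO banded 3 or any KO sham array.

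Genes that control these pathways were counted from 4 further lists with 105 genes, of which 85 were tested. For banding in KO hearts 0 passed upward and 4 downward, against 2.04% and 1.73% of all tested genes. From the list of 30 tested regulators of glucose use, 3 fell. Prkab1, a subunit of the energy sensor AMP kinase, read 258, 249 and 245 in KO banded, 501, 458 and 497 in KO sham, 346, 329 and 283 in WT banded and 474, 359 and 464 in WT sham hearts. It fell by 0.91 on the log2 scale in KO hearts (SE 0.12, adjusted p = 0.00772) and, averaged over genotypes, by 0.66 (SE 0.08, adjusted p = 0.00966), without overlap between banded and sham arrays. Akt2, the kinase that passes the insulin signal to GLUT4, read 706, 582 and 608 in KO banded and 879, 896 and 843 in KO sham hearts, at -0.46 (SE 0.09, adjusted p = 0.0246), and -0.30 averaged over genotypes (adjusted p = 0.0463). Mef2a, a muscle transcription factor that binds the Slc2a4 promoter, was 1700 ± 286 in KO banded and 2338 ± 76.7 in KO sham hearts, at -0.47 (SE 0.12, adjusted p = 0.0474). Mef2a lost its call in 18 of 25 other settings, with an adjusted p of up to 0.194, and Akt2 in 8 of 25 in KO hearts and in 16 of 24 averaged over genotypes, all with the same sign.

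From the 20 other glycogen genes tested, Ppp1r3b fell. It encodes a subunit that brings protein phosphatase to glycogen, and read 239, 294 and 222 in KO banded and 400.5, 408 and 441 in KO sham hearts, at -0.70 (SE 0.13, adjusted p = 0.0209), with 405 ± 73.4 in WT banded and 332 ± 4.29 in WT sham hearts. Of 17 other glycolysis genes 0 passed, the smallest p being that of the mitochondrial pyruvate carrier gene Mpc1 (-0.26, adjusted p = 0.295). Of 18 genes of side branches of glucose metabolism 0 passed, the smallest p being that of Gpd2, the mitochondrial glycerol phosphate dehydrogenase (-0.42, adjusted p = 0.0720). At an unadjusted p under 0.05 these lists held 0 of 17 and 4 of 18 genes, the other glycogen genes 4 of 20 and the regulators 12 of 30, against 21.2% of all tested genes. Without the array labelled KO banded 1, Prkab1 (-0.93), Akt2 (-0.54), Mef2a (-0.59) and Ppp1r3b (-0.67) passed again, and Gpd2 (-0.52, adjusted p = 0.0196) passed as well.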

How the data were processed

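Total RNA from 12 mouse hearts was measured on Affymetrix arrays. The authors deposited 1 linear intensity per array for each of 45101 probe sets. The software that summarised them is not given in the sources used here. The mean of every array, trimmed by 2% at both ends, was 150, so no further scaling was applied. The 64 control probe sets were left out, which leaves Gapdh to a separate fit. The platform annotation gave 34945 other probe sets 1 gene and 932 several genes, and did not list 9211. Of those with 1 gene, 34741 matched a RefSeq gene by Entrez number, and 0 symbols changed.

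From the deposited intensities log2(value + 16) was computed, and limma 3.58.1 under R 4.3.3 fitted the 4 group means jointly over the 12 arrays. Variances were moderated by eBayes with a mean trend, from 8 residual degrees of freedom. There were 7 comparisons, and tests were two-sided. The log2 changes understate those of dim genes. The number of arrays limits the precision. Values in every array are given for genes that passed in any comparison and otherwise for the 3 of smallest p, and for further genes chosen after their values were seen (Fbp2, Pgam1, Pfkm, Pfkl, Eno3, Pygm, Gbe1 and Ugp2 among them). From the 4 further lists, genes that passed are named, or the 1 of smallest p. The genes and lists were chosen with earlier results of these data known. Alternatives covered another filter or none, other pseudocounts, scaling by quantiles or the median, no variance trend, weighting of arrays, averaging a gene's probe sets, control probe sets, fits of single pairs of groups, a replicate block, and fits with arrays left out. The procedure was tested on simulated data.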

Additional observations from a re-analysis of the deposited data

How the results depend on the processing

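The 7 comparisons were repeated under up to 25 other settings. For banding in KO hearts, where 2 of the 32 genes passed, the count was 1 with no filter, 1 with the upper 40% of genes, 1 with a pseudocount of 64, 5 with quantile normalization, 1 with median centring, 1 without the variance trend, 11 with array weights, 0 with the mean of each gene's probe sets, 1 with only the groups compared, 1 with the replicate block, and 8 without the arrays labelled KO banded 1 and WT banded 3. Leaving out 1 array at a time gave 0 to 9 genes: 9 without the array labelled KO banded 1, and 0 without KO banded 2, KO banded 3 or any KO sham array. Where 1 gene passed for banding in KO hearts it was Slc2a4, with 2 exceptions. It was Phkg1 with median centring and Eno3 with only the groups compared. For banding in KO hearts, Slc2a4 kept its call in 17 other settings and lost it in 8. Phkg1 kept its call in 9 and lost it in 15. For banding averaged over genotypes, where 0 passed, 4 passed with quantile normalization, 6 with array weights, 6 without both arrays and 0 to 6 without 1 array. Between genotypes in banded hearts, where 0 passed, 4 passed with array weights, 4 without both arrays and 0 to 5 without 1 array. Averaged over surgery it was 0, with 1 without both arrays and 0 to 3 without 1 array, and for the difference of the banding effects 0, with 1 without both arrays and 0 to 1 without 1 array. For banding in WT hearts and for genotype in sham hearts 0 passed under all 25 settings. The causes were not tested.

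Slc2a4 in KO hearts lay between -0.77 and -0.56 (adjusted p 0.00222 to 0.134), Phkg1 between -2.50 and -0.80 (adjusted p 0.00206 to 0.201) and Pfkp between 0.76 and 1.67 (adjusted p 5.57e-05 to 0.324). Values were repeated for 27 results, those of smallest p in each comparison and those that passed from the further lists. Of these 659 repeated values, 0 changed sign, 73 lost the threshold and 23 gained it. Results chosen by small p are unlikely to change sign, so this does not cover the other genes. Among those, Aldoa, Pgk1 and Pgam2 changed sign in KO hearts with quantile normalization. Fits of only the groups compared were not run for the averages and the difference of banding effects, and Phkg1 fell below the filter at the upper 40%. Replicate numbers gave no sign of pairing: deviations from the group means correlated at -0.28 to 0.23 between same-numbered arrays. Between arrays of different number they correlated at -0.22 to 0.28. With so few arrays a group, this cannot exclude shared handling of arrays.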

Other observations

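Of the genes outside the list of glycolysis and glycogen genes, 3 chosen after their values were seen are given here. Hif1a, the oxygen-regulated transcription factor subunit that binds ACGTG-containing sites, read 639, 1028 and 919.6 in KO banded, 572, 533 and 542 in KO sham, 498, 658 and 606 in WT banded and 785, 593 and 566 in WT sham hearts. The KO groups did not overlap, at 0.61 (SE 0.17, adjusted p = 0.0699, limma), and the change was 0.81 without the array labelled KO banded 1 (adjusted p = 0.00452). Whether Hif1a acts on genes of the list, with or without ACGTG in their windows, was not tested. Stbd1, which tethers glycogen to membranes, read 71.2, 134 and 224 in KO banded, 12.5, 77.7 and 20.3 in KO sham, 15.3, 91.8 and 102 in WT banded and 4.32, 8.99 and 10.9 in WT sham hearts. Its change was 1.67 in KO hearts (SE 0.54, adjusted p = 0.0983) and 2.05 without the array labelled KO banded 1 (adjusted p = 0.0364). Prkaa2, the catalytic subunit of AMP kinase in muscle, was at -0.10 (adjusted p = 0.544), beside the fall of Prkab1.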
